A study of Homo sapiens with 4 samples.

Results

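FTL and FTH1 encode the light and heavy chains of ferritin, the protein cage in which cells store iron. The heavy chain carries the ferroxidase site that oxidizes iron as it enters, whereas the light chain helps the iron core to form. Both mRNAs carry an iron-responsive element (IRE) in the 5'UTR, a hairpin that iron regulatory proteins bind when iron is scarce, which holds back translation. The IRE has a stem, an unpaired C in its 5' arm and a loop of 6 bases, and it lies close to the cap.

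The peaks described here were all regions that overlapped or were assigned to FTL or FTH1 in the lists of regions called in FSCN1 immunoprecipitates. The lists came from iRIP-seq, in which crosslinked RNA is recovered with the precipitated protein and sequenced. The rule found 10 peaks at 6 positions among 419 peaks, 3 in FTL and 7 in FTH1. In IP replicate 1 they made up 7 of 181 peaks, and in IP replicate 2 they made up 3 of 238. Each peak was assigned in its list to the ferritin gene that it overlapped. FSCN1 (fascin actin-bundling protein 1) is an actin-bundling protein that the study examined as an RNA-binding protein in A549 cells, an established human lung adenocarcinoma line.

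The experiment held 2 immunoprecipitates (IP) and 2 input samples. All were A549 cells irradiated with ultraviolet light at 400 mJ/cm2, with no other difference in treatment given by the labels than IP against input, apart from 1 input sample labelled as an input plasmid. The labels name a FLAG antibody for the precipitation, while the methods name one against FSCN1. The study calls the 2 IP samples biological replicates, and the labels do not say whether they came from separate cultures. Enrichment over input was not computed, because the input was not analysed here, and the abundance of the ferritin mRNAs in these cells was not analysed here. A peak is a region of 50-bp bins, and its value is the average of the read tags over its bins, not scaled to library size. Which of the callers named in the methods made the lists is not stated. Every ferritin peak was 1 bin long. How deeply each library was sequenced was not determined here. No test over samples was run, since without the input the lists hold 2 replicates of 1 condition, and values are given with exact Poisson 95% intervals, which cover counting error only. Coordinates are on GRCh38, counted from 1, and gene models are the MANE Select transcripts of GENCODE 44.

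The IRE of each gene was located in the reference sequence by a search for a C, 5 bases, the loop CAGTGN and 5 bases that pair with the first 5, with at least 4 of 5 pairs and G-T pairs allowed. Each 5'UTR held 1 such element, with 5 of 5 pairs, and no other CAGTG. The elements are shown because the peaks of the genes are placed relative to them. In the 29 bases below, written on the strand of the gene, the capitals mark the loop.
FTL: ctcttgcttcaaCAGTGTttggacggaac
FTH1: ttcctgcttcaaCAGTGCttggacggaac
The sequences matched at 26 of 29 bases. In FTL they lie on the plus strand at chr19:48965335-48965363, and in FTH1 on the minus strand at chr11:61967574-61967602. From the unpaired C to the end of the stem, the element covered bases 33 to 49 of the FTL mRNA and bases 39 to 55 of the FTH1 mRNA. Elements of this form were rare. On the transcribed strand, 103 of 18763 MANE Select 5'UTRs (0.549%) and 0.719% of the first 250 bases of 19052 transcripts held one, whereas the loop CAGTGN alone occurred in 19.3% of the 5'UTRs and in 28.6% of the windows. The opposite strand was not searched, because the element acts in the mRNA.

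FTL (ENSG00000087086.15) occupies 48965309 to 48966879 of chromosome 19 on the plus strand, with 4 exons and a 5'UTR of 199 bases. In IP replicate 1, it had a single position, 48965301 to 48965350, with 18 tags on the strand of the gene (interval 10.7 to 28.4) and 18 tags on the opposite strand. The p-values of the authors were 1.92e-15 and 7.67e-17. This bin began 8 bases before the annotated transcription start and covered bases 1 to 42 of the mRNA, the beginning of the 5'UTR. It therefore overlapped the IRE, over 10 of its 17 bases and 4 of the 6 bases of the loop. The other 7 bases of the element fell in the next bin, 48965351 to 48965400, which was not in the list. The smallest value in the list of replicate 1 was 7 tags, so a lower signal there would not be seen. The methods also describe filters by p-value and by fold over input, and whether these shaped the lists is not stated. An unlisted bin therefore need not have had fewer tags than this.

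In IP replicate 2, FTL had 1 peak on the strand of the gene and none on the opposite strand, at 48965901 to 48965950. It had 6 tags (interval 2.20 to 13.1, p-value of the authors 0.00846), the smallest value in that list, which 78 of its 238 peaks shared. The region held the last 16 bases of the coding sequence of exon 2 and 34 bases of the following intron, so it lay across a 5' splice site, the junction at which the intron is cut from the exon. The FTL regions of the replicates were 550 bases apart, and 543 bases lay between the IRE and the region of replicate 2 in the unspliced gene. Among the ferritin positions, the start of FTL thus had the most tags in replicate 1, and it was not listed in replicate 2.

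FTH1 (ENSG00000167996.16) is transcribed from the minus strand of chromosome 11, and its MANE Select transcript starts at 61967634, with 4 exons and a 5'UTR of 209 bases. In IP replicate 1, it had 3 positions. The bin nearest to the start, 61967501 to 61967550, covered bases 85 to 134 of the mRNA, inside the 5'UTR, with 9 tags on each strand (interval 4.12 to 17.1). The next, 61967401 to 61967450, covered bases 185 to 234 with 16 tags on each strand (interval 9.15 to 26.0). This region held 25 bases of the 5'UTR and 25 bases of the coding sequence, with the start codon between them. The last position, 61964651 to 61964700, lay in the 3'UTR and had 7 tags on the strand of the gene (interval 2.81 to 14.4). There, the gene BEST1 runs on the opposite strand, from 61950063 to 61965515, and the list gave no peak on its strand. No other annotated gene lay at a ferritin peak.

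In IP replicate 2, FTH1 had 1 position, 61967301 to 61967350, with 8 tags on the strand of the gene (interval 3.45 to 15.8) and 6 on the opposite strand (interval 2.20 to 13.1). It held the last 39 bases of the coding sequence of exon 1 and 11 bases of the intron. No ferritin position was shared between the replicates, on the same or on either strand. The share of all listed positions that the replicates had in common was not computed here, so this does not set the ferritin genes apart. In FTH1, the nearest regions of the replicates were 50 bases apart, the first within exon 1 and the second across its end.

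No FTH1 peak overlapped the IRE in either replicate. The whole element lay in the bin 61967551 to 61967600, which was in neither list. In replicate 1, 29 bases separated the element from the nearest peak, and in replicate 2, 229 bases did. FTL thus had its replicate 1 peak over the first part of the IRE, while the replicate 1 peaks of FTH1 began downstream of it. The bins are 50 bp wide, and how a read was assigned to a bin is not given in the sources used here, so a bin does not place a contact within it. Only replicate 1 shows this contrast, and it was not tested. With the element extended by 50 bases on either side it was lost, since 2 FTH1 peaks of replicate 1, those on both strands of 1 position, then touched it.

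**Figure D1:**
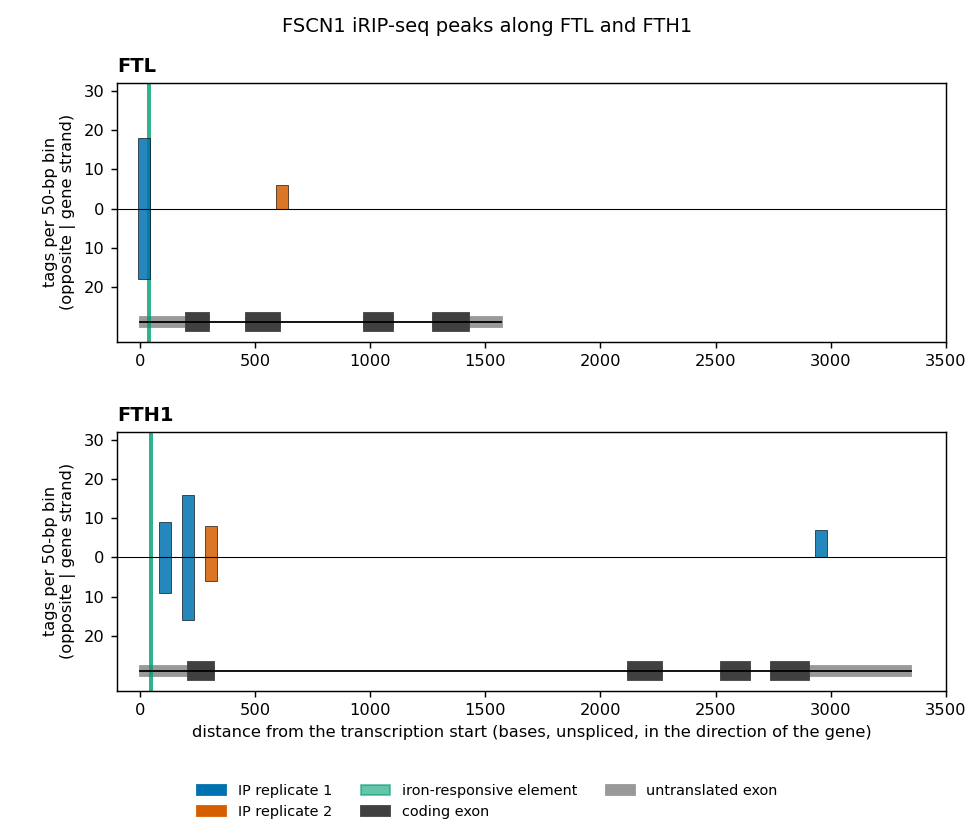
Peaks along FTL (top) and FTH1 (bottom). The horizontal axis is the distance in bases from the transcription start in the unspliced gene, and the vertical axis is tags per bin, upward for the strand of the gene and downward for the opposite strand, with the replicates in colour and the MANE Select exons below. Of the 6 positions, 5 lie within the first 2 exons and their borders, and 1 lies in the 3'UTR of FTH1.

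Both positions of replicate 2 covered the end of an exon. Their peaks had 6 to 8 tags, at or near the lowest value of the list, 6 tags. The share of all bins that cross the end of an exon was not computed here, so this does not set them apart. Exon 2 of FTL ends at 48965916 and exon 1 of FTH1 ends at 61967312. The 30 bases around each junction are shown because both regions cross them, with the first 2 bases of the intron in capitals. They come from chr19:48965907-48965936 on the plus strand and chr11:61967292-61967321 on the minus strand.
FTL exon 2: ggacatcaagGTaactagtgtgtgggtaat
FTH1 exon 1: cctgtccatgGTgagcgcgggcgggcctaa
The lists named the FTL region by its intron, with a share of 0.68, and the FTH1 region by its coding sequence, with a share of 0.78. A bin across a junction can hold reads of spliced or of unspliced RNA, and the lists do not tell them apart.

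**Figure D2:**
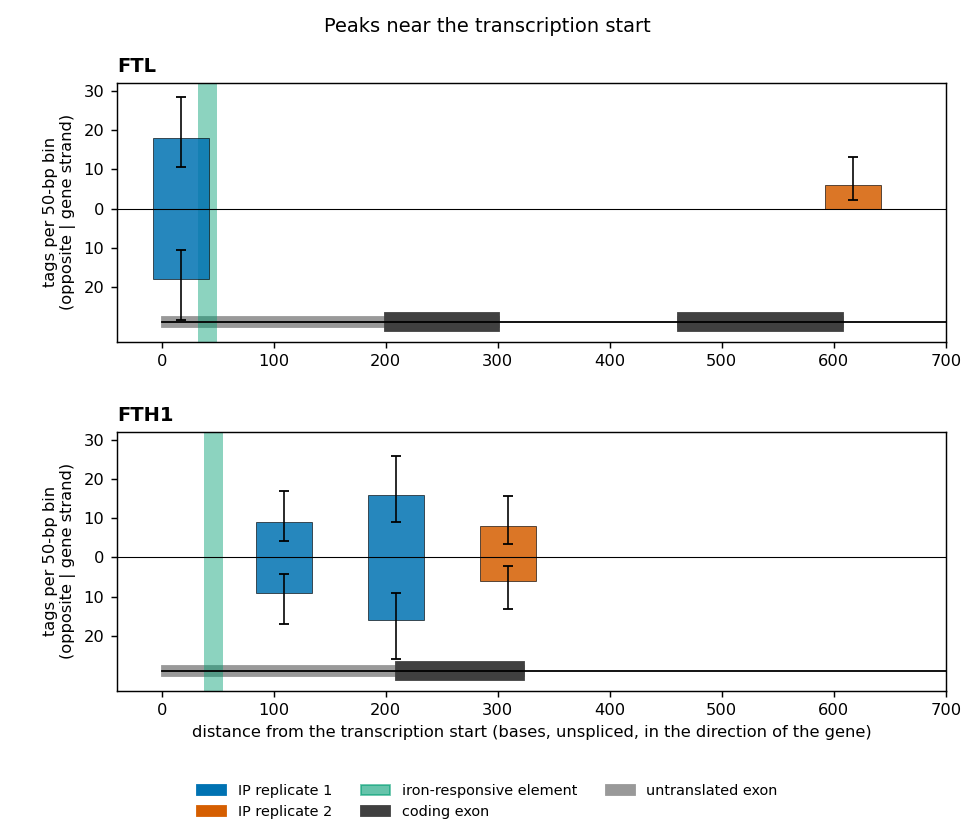
The same peaks near the transcription start. Bars are tags per bin on each strand, error bars are exact Poisson 95% intervals, and the green band is the IRE. The FTL bar of replicate 1 reaches into the band, the FTH1 bars of replicate 1 begin 29 bases after it, and the bars of replicate 2 lie across the ends of exons.

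At the ferritin positions listed on both strands, the strands mirrored each other in replicate 1. The 3'UTR position of FTH1, with 7 tags, was listed on the strand of the gene only. All 3 ferritin positions with peaks on both strands in that replicate had equal tags, 18, 16 and 9, whereas the position of FTH1 in replicate 2 had 8 and 6. Among all regions listed on both strands, 21 of 46 (45.7%) had equal tags in replicate 1 and 28 of 60 (46.7%) in replicate 2. Whether equal tags come from the same fragments was not tested, so sums over strands may count a fragment more than once.

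Summed over both strands, FTL had 36 tags in replicate 1 and 6 in replicate 2, and FTH1 had 57 and 14. FTL had fewer tags than FTH1 in both replicates. The ratio of FTL to FTH1 was 0.632 in replicate 1, against 0.429 in replicate 2, and intervals are given only for the strand of the gene, since the strands may count the same fragments. The FTL mRNA is shorter, 871 bases against 1203 bases. Per kilobase of mRNA, the summed tags were 41.3 for FTL and 47.4 for FTH1 in replicate 1, and 6.89 and 11.6 in replicate 2. On the strand of the gene, with 18 tags against 32, the ratio was 0.563 in replicate 1 (exact conditional 95% interval 0.297 to 1.03). With 6 tags against 8, it was 0.75 in replicate 2 (interval 0.214 to 2.46), so equal sums lay within counting error in both replicates. The tallest FTL bin had 1.13 times the tags of the tallest FTH1 bin in replicate 1 (interval 0.542 to 2.36), but 0.75 times in replicate 2 (interval 0.214 to 2.46), a difference within counting error. The larger sum of FTH1 in replicate 1 went with its larger number of positions, 3 against 1.

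The place of both genes is given within each list. The lists differ in length and lowest value and are not scaled to depth, so ranks are not compared between the replicates. By tags summed over both strands, which may count a fragment more than once, FTH1 had rank 2 and FTL rank 5, tied with 1 other gene, of the 44 protein-coding genes with a peak in replicate 1 (0.219% of 20046), where the median gene had 14 tags. In replicate 2, FTH1 had 14 tags against a median of 13 over 56 genes (0.279% of all), and FTL was among the 13 genes with the lowest value, 6 tags. On the strand of the gene alone, an alternative chosen after seeing the data, FTH1 had rank 2 and FTL rank 6 of 33 genes in replicate 1, and ranks 18 and 30 of 48 genes in replicate 2, both with ties. By single peaks and with strands counted separately, 88.6% of the 79 peaks in protein-coding genes of replicate 1 had fewer tags than the FTL peaks, and 86.1% had fewer than the tallest FTH1 peaks, while the FTH1 peak in the 3'UTR was at the lowest value. In replicate 2, the tallest FTH1 peak exceeded 67.0% of 115 peaks and the FTL peak exceeded none.

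**Figure D3:**
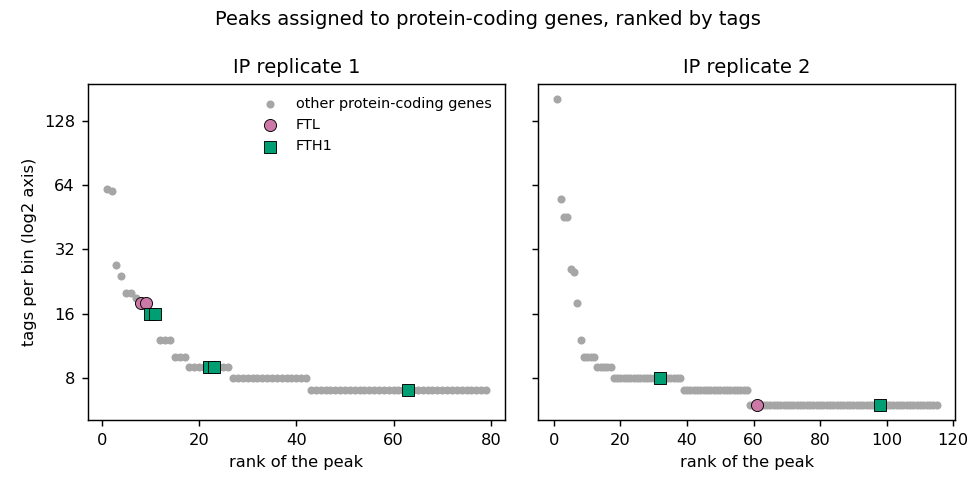
Peaks assigned to protein-coding genes, ranked by tags from left to right, for IP replicate 1 (left) and IP replicate 2 (right), with tags per bin on a log2 axis and tied peaks in arbitrary order. In replicate 1, the FTL peaks lie near the top at 18 tags, whereas those of FTH1 range from 16 tags down to 7, the lowest value of the list. In replicate 2, both genes lie at 6 to 8 tags.

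Peaks labelled as 5'UTR were few, and in replicate 1 the 2 tallest were those of FTL and FTH1. In replicate 1, 7 peaks carried this label on the strand of a gene, and 3 of them belonged to FTL (1) or FTH1 (2). Their values were 18, 16 and 9 tags, and the 4 peaks of other genes had 7 to 9 tags. The FTH1 peak of 16 tags was labelled 5'UTR and coding sequence in equal parts. In replicate 2, 2 peaks carried the label and 0 of them belonged to ferritin. From the start of transcription to the start codon, FTL had 1 of 5 bins listed in replicate 1 and FTH1 had 2 of 5. Neither gene had any in replicate 2.

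The sequence of the ferritin positions was often rich in G and C. The bin at the start of FTL had a GC content of 64%, against a median of 56% over the 32 bins of the gene, and the bin across its exon 2 had 48%. In FTH1, both bins of replicate 1 in exon 1 had 72%, the bin in the 3'UTR had 58% and the bin of replicate 2 had 60%. The median was 50% over the 159 bins of the annotated gene, 61959718 to 61967634. That span extends past the end of the MANE Select transcript, so the medians of FTL and FTH1 do not cover like regions. The 45S rRNA precursor was compared with each ferritin position and 50 bases on either side. An alignment of at least 40 bases at 85% identity was found only for the FTH1 position at the start codon, over 47 bases at 85.1% identity. The start of FTL had none, nor did the other 4 positions. The part of this similarity in the tags was not tested.

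Ferritin genes have many processed pseudogenes, copies of the spliced mRNA inserted elsewhere in the genome, and the authors kept only reads with a unique alignment. GENCODE 44 names 25 pseudogenes FTH1P and 16 named FTLP, and 0 of them had a peak. A peak in either replicate was found for 6 of 15233 annotated pseudogenes (0.0394%), so a count of 0 does not set these copies apart. Of the windows of 50 bases along the mRNA, 25.8% of those of FTL and 45.2% of those of FTH1 occurred exactly elsewhere in the genome. For windows of 100 bases, the shares were 3.37% and 22.6%, and for 150 bases they were 0% and 0.759%. The FTH1 mRNA thus had more sequence with exact copies than the FTL mRNA.

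**Figure D4:**
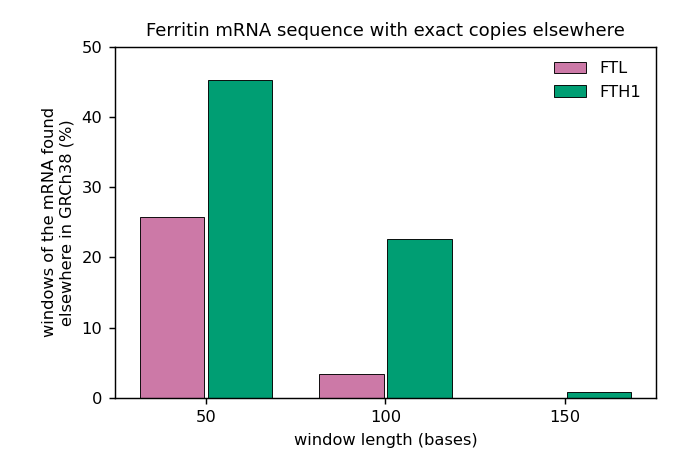
Percent of windows of the FTL and FTH1 mRNA (vertical axis) that occur exactly elsewhere on the GRCh38 chromosomes, for windows of 50, 100 and 150 bases (horizontal axis). FTH1 is above FTL at each length, with 45.2% against 25.8% at 50 bases, and both are under 1% at 150 bases.

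At the ferritin positions themselves, the copies were unevenly spread. No genomic window that touched the bin at the start of FTL occurred elsewhere at any of the lengths, and the same held for the FTH1 bin nearest to the start. For the other positions, the share at 50 bases was 16.2% at the end of FTL exon 2, 28.3% at the FTH1 start codon, 32.3% at the end of FTH1 exon 1 and 70.7% in the 3'UTR of FTH1. The 3'UTR position kept 38.3% at 100 bases, and at 150 bases no position had a copy. These windows were cut from the unspliced gene. Those across the end of an exon hold intron sequence, so copies of spliced reads are not counted there. The part of sequence copies in the absence of peaks elsewhere in the mRNAs was not tested.

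No other gene on the fixed lists of ferritin, iron and IRE genes had a peak. FTL and FTH1 were among the 15 protein-coding genes (0.0748%) with a peak in both replicates, and they were chosen with their peaks known. Of 36 other genes that handle iron, 0 had a peak in either replicate. They included TFRC (the transferrin receptor that brings iron into cells), SLC40A1 (ferroportin, the iron exporter), ACO1 and IREB2 (the iron regulatory proteins), NCOA4 (the receptor that delivers ferritin to autophagy), PCBP1 and PCBP2 (iron chaperones) and HMOX1 (which frees iron from heme). The other ferritin genes, FTMT of mitochondria and FTHL17, are among these 36 and so had no peak. Since 0.424% of protein-coding genes had a peak in either replicate, a count of 0 in 36 genes does not set this list apart. Of 10 mRNAs known for an IRE, FTL and FTH1 had peaks and the 8 others had none. The others included ALAS2, an enzyme of heme synthesis, and EPAS1, a hypoxia factor. Against the same share of 0.424%, a count of 0 in 8 genes does not set them apart. Genes such as TFRC, SLC40A1 and ALAS2 are on both the iron list and the IRE list, so the counts are not separate. Signals below 7 tags in replicate 1 and 6 tags in replicate 2 were not detectable, and higher ones may have failed other filters of the methods.

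The genes most like FTL and FTH1 were sought among the 15 protein-coding genes with a peak in both replicates, by the absolute difference of log2 tags, summed over both strands of each gene and over the 2 replicates. The nearest to FTL were ABCC3, an organic anion transporter, with 28 and 14 tags (difference 1.58), CREBBP, a histone acetyltransferase, with 43 and 16 tags (difference 1.67), and FTH1 itself (difference 1.89). The nearest to FTH1 were CREBBP (0.60), ABCC3 (1.03) and PPP5C, a protein phosphatase, with 36 and 32 tags (1.86), followed by FTL. These likenesses rest on 2 values a gene, which were not scaled to the depth of their library, and they depend on the strands. On the strand of the gene alone, chosen after seeing the data, 10 protein-coding genes were listed in both replicates, without CREBBP. The nearest to FTL were then ABCC3 (1.22), FTH1 (1.25) and PLEC (1.36), which encodes the cytoskeletal linker plectin, and the nearest to FTH1 was FTL (1.25), followed by YJU2 (1.85) and PPP5C (1.95).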

How the data were processed

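RNA regions that the authors called in FSCN1 immunoprecipitates came from iRIP-seq in A549 cells, and 1 peak list was used for each of 2 IP samples. The input (2 samples) was not analysed here. The authors used HISAT2 to map the reads to GRCh38, excluded duplicates and reads without a unique alignment, and ran ABLIRC and Piranha as peak callers on the annotation of Ensembl 104 (versions of the tools are not given in the sources used here). The sources do not say which caller made these lists, and so which model the p-values come from. The tags column is a signal that the authors deposited as the mean number of tags per 50-bp bin, not scaled to depth. The p-value of each region is also the authors'. The fold over input that the methods describe is not a column of the lists.

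Members were peaks that overlap or are assigned to FTL or FTH1. The genes named were these, any member of fixed lists of ferritin, iron and IRE genes with a peak, and the 3 genes most like each. Other genes (iron genes without a peak, the neighbour BEST1, other genes with 5'UTR peaks, MRTFA, PLEC and YJU2) were named after their values were seen. The members and lists were chosen with earlier results of these data known. No groups were compared and no test was run. Positions, features and sequences came from GRCh38 and GENCODE 44. Exact copies were counted on the main chromosomes with windows of 50, 100 and 150 bases, and similarity was searched with blastn 2.17.0. Intervals are exact 95% intervals. The searches and intervals were tested on simulated data. Scripts ran in Python 3.11.15 with pandas 2.3.3, pysam 0.24.0, scipy 1.17.1, matplotlib 3.10.9 and numpy 2.4.6. Alternatives covered strand, tag threshold, assignment, counting of positions, overlap, distance, length scaling and each replicate left out.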

Additional observations from a re-analysis of the deposited data

How the results depend on the processing

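Of 66 alternatives, all chosen along with the design except those for ranks and likeness, 46 kept their value within the counting interval or within 1.5 times, and 20 moved. On the strand of the gene, 2 of the 3 genes most like FTL and 1 of the 3 most like FTH1 were kept. With the strand of the gene only, or with each position counted once, FTL had 1 peak and 18 summed tags in replicate 1, and FTH1 had 3 peaks and 32 tags in replicate 1 and 1 peak in replicate 2. This follows from leaving out the mirrored strand. When only peaks above their list's median tags were kept, both genes had 0 peaks and 0 tags in replicate 2, FTH1 had 2 peaks and 32 tags in replicate 1, and the ratio of FTL to FTH1 in replicate 1 turned from 0.632 to 1.125, since only the tallest FTH1 position remained. This setting gave no ratio in replicate 2. Within 100 bp instead of overlapping, 2 FTH1 peaks of replicate 1 lay near one of replicate 2, and with the IRE extended by 50 bases, 2 FTH1 peaks of replicate 1 touched it. With the replicates left out in turn, the pooled ratio of 0.592 ranged from 0.429 to 0.632, and 0 iron genes had a peak in each case. No paired analysis was possible because only the IP samples were analysed and no groups were compared. By the MANE Select transcript, 5 of 6 peaks on the strand of the gene kept the feature of the list. The FTH1 peak of 16 tags was divided equally between the 5'UTR and the coding sequence by both annotations. It was counted as changed only because the tie was broken differently. The lowest listed values, 7 and 6 tags, and the other filters that the methods describe limit what the absence of a peak shows.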

Other observations

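Beside FTL and FTH1, 101 genes had an IRE-like element in the 5'UTR, and 1 of them (0.990%) had a peak, against 0.424% of all protein-coding genes, so a single gene does not set them apart. MRTFA, which encodes a coactivator of serum response factor, had 6 tags (interval 2.20 to 13.1) in an intron on chromosome 22 at 40501651 to 40501700 in IP replicate 2, and no peak in replicate 1. This gene and those that follow were chosen after their values were seen. The 5'UTR peaks of other genes in replicate 1 were those of ATP2A2, a calcium pump, with 9 tags, RBCK1 and IGFBP4 with 8 tags each, and RPS27, a ribosomal protein gene, with 7 tags. In replicate 2 they were those of PTMS with 7 tags and AKR1B10, an aldo-keto reductase gene, with 6 tags.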
